A study of Mus musculus with 26 samples.

Results

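The 10 genes described here belong to the BCL2 family, the proteins that decide whether a cell keeps or breaks its outer mitochondrial membrane. They were chosen by name, as 10 of the 35865 genes with a transcript in the deposited tables: 4 pro-survival genes (Bcl2, Bcl2l1, Mcl1 and Bcl2a1b), 4 BH3-only genes (Bcl2l11, Bbc3, Pmaip1 and Bid) and 2 effector genes (Bax and Bak1). All 10 passed the filter on low counts. They were measured in TCRTg101, CD8+ T cells that carry 1 transgenic receptor, that of a single T cell clone, for an antigen of the C1498 leukemia line. Except at day 0, cells had been transferred into mice. They were sorted by flow cytometry and sequenced as bulk RNA in 14 low-input libraries and 1 oligo-dT library. The labels list every sample as C57BL/6, wild type and 6 weeks old, so the strain was shared by all groups.

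The 3 control libraries came from spleens, replicates 1 and 2 from naive cells at day 0 and replicate 3 from untreated mice at day 18. All other low-input libraries came from leukemia-bearing mice. The early libraries were taken at day 7 (2 from liver and 2 from spleen), the mid libraries at days 13 and 14 (3 from liver and 1 from spleen) and the late libraries at day 18 (liver replicate 1) and day 16 (liver replicate 2). The undivided library (CTVhi, cells that kept a dye diluted by division) came from spleen at day 18, and both it and the mid spleen group held 1 library. Controls came from spleen, so leukemia and tissue cannot be told apart in the liver comparisons. The labels do not say which libraries came from separate mice, so p-values measure the spread between libraries only. In bulk RNA, fewer cells of a type and less RNA per cell cannot be told apart.

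BAX and BAK form the pores that release cytochrome c. BCL2, BCL-XL (from Bcl2l1), MCL1 and A1 (from Bcl2a1b) hold these pores and the BH3-only proteins in check, and the BH3-only proteins BIM (from Bcl2l11), PUMA (from Bbc3), NOXA (from Pmaip1) and BID counter them. In naive CD8+ T cells, survival is known to rest on interleukin-7 signals, BCL2 and MCL1, while A1 and BCL-XL are known to be induced by antigen receptor signals, and BIM is known to drive the death of activated T cells.

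Library totals ranged from 22679819 to 70706990 estimated counts (median 34027113) over the 14 low-input libraries. All 9 CD8 T cell markers were detected in each of the 7 groups, with a summed level of 18050 to 52410 CPM (counts scaled to one common library total by TMM, the trimmed mean of M values), and Cd4 stayed at 5.34 CPM or less. Between controls and mid and late liver libraries, summed neutrophil, dendritic cell and hepatocyte markers did not overlap. Myeloid, erythroid, B cell, NK cell and endothelial sums did. Summed myeloid markers stood at 490 and 105 CPM in the day 0 controls and 10.2 CPM in the day 18 control, against 12.0 to 49.6 CPM in the 5 mid and late liver libraries. Summed neutrophil markers stood at 238, 43.5 and 12.6 CPM in the controls and at 0.51 to 3.57 CPM in the mid and late liver libraries. Summed erythroid markers stood at 5213, 20330 and 136 CPM in controls and 5.59 to 215 CPM in mid and late liver libraries, and summed dendritic cell markers at 40.5, 33.9 and 6.32 CPM and at 2.66 to 5.25 CPM. Summed hepatocyte markers stood at 0.38 to 0.82 CPM in controls and 3.19 to 298 CPM in mid and late liver libraries. In controls all 7 hepatocyte markers stayed under 1 CPM and 1 was at 0. The part of these cells in the results was not tested. Libraries fell into 2 series by title (3 TG and 11 XC low-input libraries), taken as the sequencing batches, and the series was a term in the tests unless stated otherwise.

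A1 is encoded by near-identical copies on chromosome 9, so the reads counted for Bcl2a1b (chr9:89199209-89207827, plus strand) compete with those of Bcl2a1d (chr9:88723285-88731914, minus strand) and Bcl2a1a (chr9:88956900-88962419, plus strand). The coding sequences of 519 bases differed from Bcl2a1b at 6 bases in Bcl2a1d (98.8% identity) and at 11 bases in Bcl2a1a (97.9% identity). Of the 31-base words of each transcript, 27.3% were found in no other of the 3 copies for Bcl2a1b, 10.9% for Bcl2a1d and 21.7% for Bcl2a1a, which shows how much sequence can tell the copies apart. The first 60 coding bases (GENCODE vM21, GRCm38, read 5′ to 3′ from the start codon) are given to show this. Capitals mark, in Bcl2a1b, the bases at which either other copy differs and, in the other copies, the bases that differ from Bcl2a1b.
Bcl2a1b: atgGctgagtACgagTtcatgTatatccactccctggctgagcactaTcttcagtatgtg
Bcl2a1d: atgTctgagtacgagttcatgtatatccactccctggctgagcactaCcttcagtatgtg
Bcl2a1a: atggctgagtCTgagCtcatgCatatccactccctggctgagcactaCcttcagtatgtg

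Control TCRTg101 expressed mainly Mcl1 and Bax. Per length, in TPM (each transcript's share of all transcripts after division by length), Mcl1 was highest in controls at 368 ± 165 TPM (SD, n = 3), followed by Bax at 148 ± 1.84 TPM and Bcl2 at 43.2 ± 6.41 TPM, and these neighbours did not overlap between libraries from Mcl1 to Bax or from Bax to Bcl2. Bcl2l11 (25.9 TPM), Bbc3 (18.7 TPM), Bid (17.7 TPM), Bcl2a1b (15.6 TPM), Pmaip1 (13.2 TPM) and Bcl2l1 (8.32 TPM) followed, and each overlapped its neighbour in this order, as Bcl2 did with Bcl2l11. Bak1 was lowest at 1.22 ± 0.18 TPM. In the late liver libraries Bcl2a1b stood at 184 and 179 TPM, against 76.9 and 289 TPM for Mcl1.

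In late liver libraries 4 of the 10 genes rose against control and 0 fell. Among all 14600 genes tested, 19.8% were called higher and 17.7% lower in this comparison. The 4 genes were the pro-survival genes Bcl2a1b and Bcl2l1, the BH3-only gene Bcl2l11 and the effector gene Bak1. In mid liver libraries 5 genes rose (the same 4 and Bid) and 2 fell (Bcl2 and Bbc3), where 17.3% of all genes were called higher and 13.9% lower. Over the 5 mid and late libraries as 1 group, 6 genes rose (Bax was added) and 2 fell (Bcl2 and Mcl1), where 23.7% of all genes were called higher and 23.1% lower. These comparisons share the controls. Calls used edgeR's quasi-likelihood test at an adjusted p under 0.05. All of these calls were lost without control replicate 1, the only TG control, when among all genes 0 were called for the joint group, 1 for mid and 126 higher and 22 lower for late libraries. With either late library left out, 1 late library remained, and the late calls did not hold. Mid calls fell to 0 of the 10 without mid replicate 1, mid replicate 3 or control replicate 2. They fell to 2 without mid replicate 2 and to 3 without control replicate 3. Among all genes, 0 were called for mid without mid replicate 1 or mid replicate 3, and 1 without control replicate 2. Without mid replicate 2, 1792 were called higher and 1365 lower, and without control replicate 3, 1257 and 1098.

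**Figure D1:**
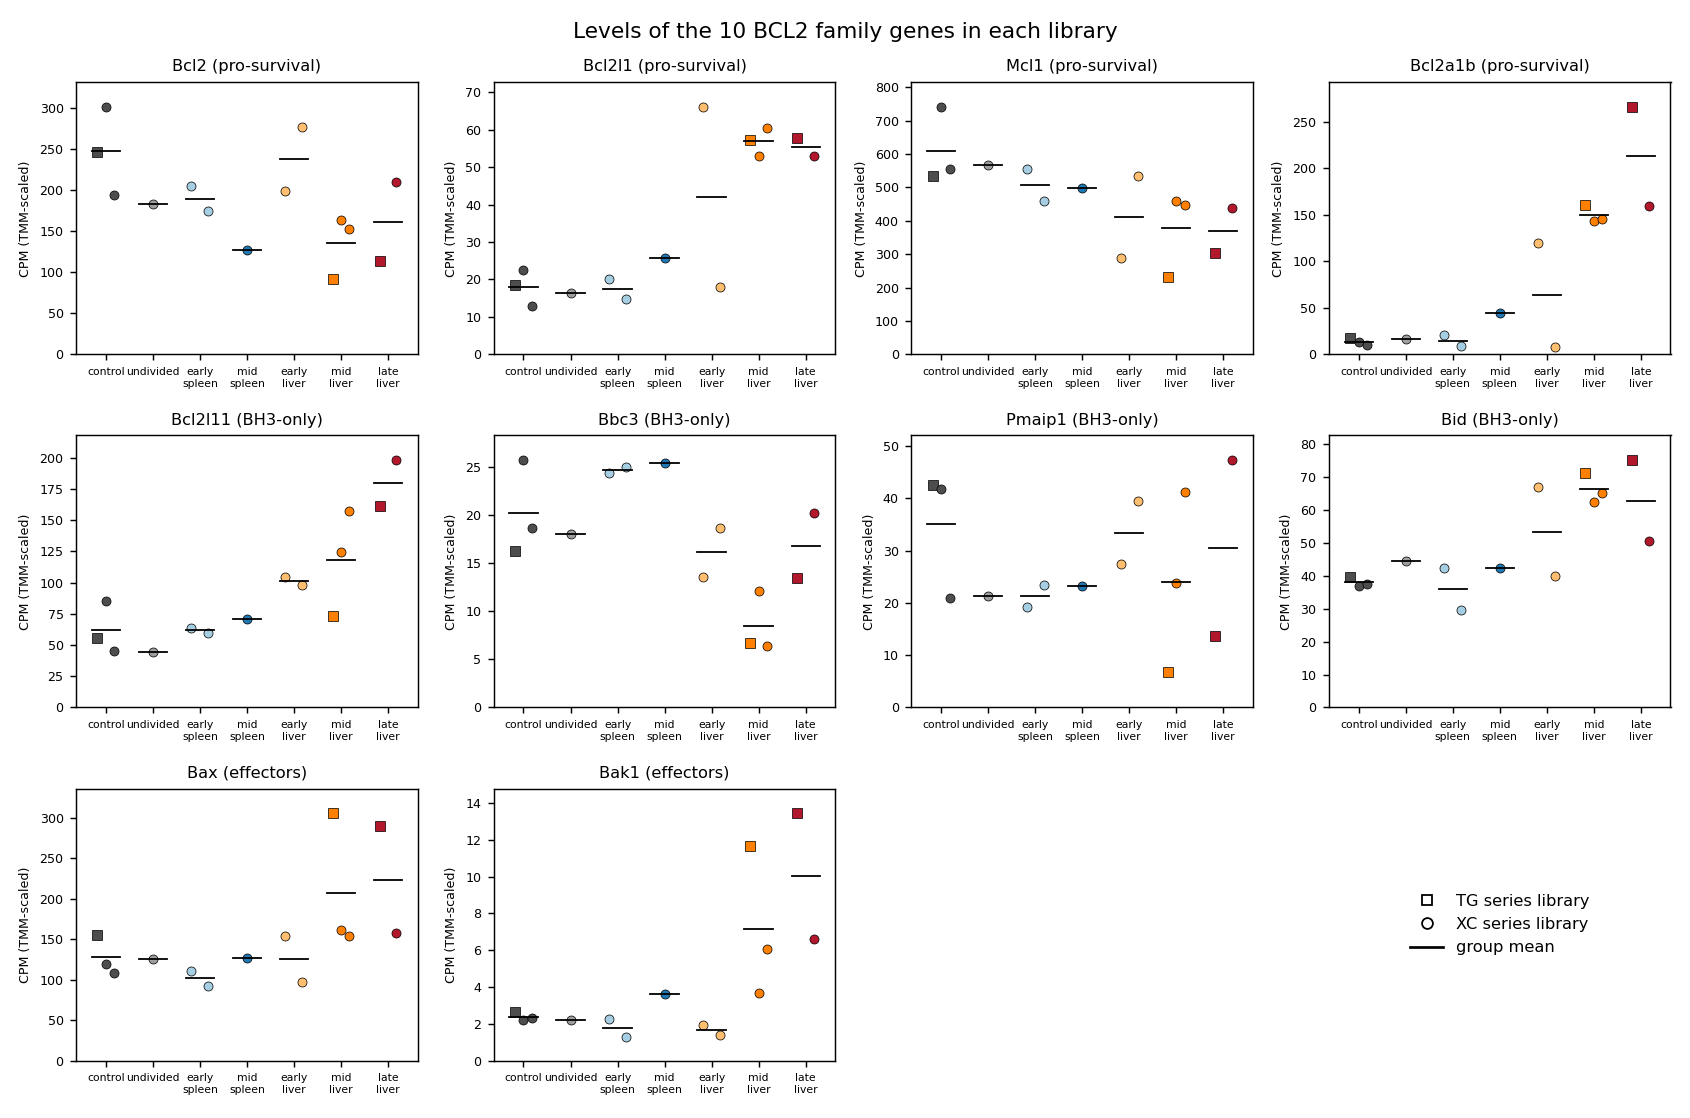
Level of each gene in each low-input library, in CPM scaled by TMM on a linear axis from 0, by group. Squares are TG series libraries, circles XC series libraries and lines group means. The mid and late liver libraries lie above all controls for Bcl2l1, Bcl2a1b, Bid and Bak1 and below all controls for Mcl1.

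Bcl2a1b had the highest fold change of the 10 genes in late and in mid liver libraries. It stood at 17.1, 12.8 and 9.85 CPM in the control libraries, at 161, 144 and 146 CPM in the mid liver libraries and at 266 and 160 CPM in the late liver libraries. Every mid and late library lay above every control, and late replicate 1 stood highest. The log2 fold change was 3.89 ± 0.89 (SE) for late (14.8-fold, adjusted p = 0.0178) and 3.51 ± 0.83 for mid (11.4-fold, adjusted p = 0.0255). Within the TG series the late library exceeded the control by 3.92 on the log2 scale, and within the XC series by 3.77. Mid replicate 3, with the lowest summed hepatocyte level of the mid and late libraries (3.19 CPM), held 146 CPM. The part of hepatocytes or other cells in the Bcl2a1b level was not tested. Fitted with Bcl2a1a and Bcl2a1d added to 1 gene, the late change was 3.80 (adjusted p = 0.0210). Some of its exon sequence is shared with the annotated gene Gm29094 on the same strand, which went from a mean of 5.32 CPM in controls to 31.4 CPM in mid and late libraries.

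Bcl2a1d, the closest copy, stood at 7.51, 6.03 and 3.25 CPM in controls, at 111, 64.6 and 95.0 CPM in mid and at 187 and 108 CPM in late liver libraries, and its late change was 4.57 ± 1.02 on the log2 scale (adjusted p = 0.0170). Bcl2a1a stood at 9.14 and 5.36 CPM in the day 0 controls and at 0.27 CPM in the day 18 control, and at 1.46 CPM or less in the mid and late libraries. The day 0 controls were also the libraries with the highest summed myeloid and neutrophil markers, and the part of these cells in the Bcl2a1a level was not tested. Of these 3 copies, Bcl2a1a was the one that separated day 0 controls from every other library. Bcl2a1b and Bcl2a1d were those that separated mid and late libraries from controls. The copy Bcl2a1c also did so at a far lower level, at 0.08 to 0.18 CPM in controls and 0.86 to 2.05 CPM in mid and late libraries.

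Bcl2l1 (chr2:152780668-152831728, minus strand), which encodes BCL-XL, rose at both time points. It stood at 18.5, 22.4 and 12.8 CPM in controls, at 57.2, 53.0 and 60.5 CPM in mid and at 57.8 and 53.0 CPM in late liver libraries. The groups did not overlap, and the 5 mid and late libraries lay close to each other. The log2 fold change was 1.59 ± 0.47 for late (3.02-fold, adjusted p = 0.0320) and 1.65 ± 0.43 for mid (3.14-fold, adjusted p = 0.0282). The late difference was 1.62 within each series. Its main transcript, of 2417 bases, stood at 8.41 to 14.4 CPM in controls and at 30.7 to 50.8 CPM in mid and late libraries.

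Of the other pro-survival genes, Bcl2 (chr1:106538178-106714274, minus strand) fell in mid libraries and Mcl1 (chr3:95658788-95663176, plus strand) over both time points as 1 group. Bcl2 stood at 247, 301 and 194 CPM in controls, at 91.6, 164 and 152 CPM in mid and at 113 and 210 CPM in late liver libraries, so mid libraries lay below all controls and late replicate 2 lay among them. Bcl2 fell by 0.94 ± 0.26 on the log2 scale in mid libraries (adjusted p = 0.0302), and the late change of -0.63 ± 0.29 did not pass the test (adjusted p = 0.117). Mcl1 stood at 535, 740 and 554 CPM in controls, at 232, 459 and 446 CPM in mid and at 302 and 437 CPM in late liver libraries, with no overlap. Mcl1 fell by 0.73 ± 0.22 on the log2 scale over the mid and late libraries together (adjusted p = 0.0228), while neither time point alone passed (adjusted p = 0.0558 for mid and 0.102 for late). Without the series term the 2 falls over both time points did not pass.

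The transcripts of Mcl1 were split differently in the libraries of the TG and XC series. The shorter Mcl1 transcript, of 858 bases, held 59.5 CPM in the TG control and 247 and 172 CPM in the XC controls, and 20.1 and 45.8 CPM in the TG mid and late libraries against 142 to 158 CPM in the XC ones. The long transcript, of 3418 bases, stood at 475, 493 and 382 CPM in controls and at 212 to 317 CPM in mid and late libraries, below all controls. The late difference of Mcl1 within the TG series was -0.82 and within the XC series -0.55. For Bcl2 it was -1.12 and -0.20.

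Of the BH3-only genes, Bcl2l11 (chr2:128126038-128162547, plus strand), which encodes BIM, rose at both time points. It stood at 55.4, 85.1 and 45.5 CPM in controls, at 73.1, 125 and 158 CPM in mid and at 161 and 198 CPM in late liver libraries. In CPM, both late libraries lay above all controls, and mid replicate 1 lay among them. In TPM, Bcl2l11 stood at 15.67, 42.08 and 19.79 in controls, at 10.95, 45.82 and 56.73 in mid and at 22.05 and 61.16 in late libraries. On that scale late replicate 1 lay among the controls and mid replicate 1 below all of them. The log2 fold change was 1.59 ± 0.29 for late (3.01-fold, adjusted p = 0.0106) and 0.87 ± 0.26 for mid (1.82-fold, adjusted p = 0.0377). The late minus mid difference of 0.72 ± 0.29 did not pass in the edgeR fit (adjusted p = 0.910). Most of the change lay in a coding transcript of 5036 bases, which stood at 37.1, 34.7 and 26.6 CPM in controls, at 67.9, 77.6 and 86.7 CPM in mid and at 139 and 121 CPM in late libraries. Kallisto divides reads among the 8 listed transcripts of this gene, so these shares are estimates.

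Bbc3 (chr7:16308393-16318205, plus strand), which encodes PUMA, fell in mid libraries, and its late change did not pass the test. It stood at 16.3, 25.7 and 18.6 CPM in controls, at 6.75, 12.1 and 6.43 CPM in mid and at 13.4 and 20.2 CPM in late liver libraries. Every mid library lay below every control, and the late libraries overlapped the controls. Bbc3 fell by 1.28 ± 0.28 on the log2 scale in mid libraries (adjusted p = 0.0220), by nearly the same within each series (-1.21 in TG and -1.26 in XC). The late change was -0.22 ± 0.31 (adjusted p = 0.584). The late minus mid difference was 1.06 ± 0.31 with an adjusted p of 0.910 in the edgeR fit, so a return was not called. In the mid spleen library Bbc3 stood at 25.4 CPM.

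Bcl2l11 and Bbc3 are known targets of FOXO transcription factors, and both hold the FOXO core word TGTTTAC in a promoter window of an annotated start. The windows span 250 bases before to 50 bases after each start in RefSeq (GRCm38.p6), and 9 of the 10 genes had 14 windows in all. The word was searched on both strands and was found in 2 of these 14 windows and in 1199 of all 32851 windows (3.65%). Both windows are printed because these 2 genes moved in opposite directions at the mid time point, and capitals mark the word or its reverse complement. The first capital lies at position -227 of the Bcl2l11 window (chr2:128125788-128126087, plus strand) and at position -167 of the Bbc3 window (chr7:16310011-16310310, plus strand), counted from the annotated start as 0. A match is a string of letters and not a shown binding site.
Bcl2l11: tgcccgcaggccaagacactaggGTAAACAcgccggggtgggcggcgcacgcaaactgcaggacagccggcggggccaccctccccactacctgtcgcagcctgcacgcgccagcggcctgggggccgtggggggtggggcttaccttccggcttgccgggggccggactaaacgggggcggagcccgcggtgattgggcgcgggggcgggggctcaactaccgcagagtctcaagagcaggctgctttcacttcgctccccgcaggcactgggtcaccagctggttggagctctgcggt
Bbc3: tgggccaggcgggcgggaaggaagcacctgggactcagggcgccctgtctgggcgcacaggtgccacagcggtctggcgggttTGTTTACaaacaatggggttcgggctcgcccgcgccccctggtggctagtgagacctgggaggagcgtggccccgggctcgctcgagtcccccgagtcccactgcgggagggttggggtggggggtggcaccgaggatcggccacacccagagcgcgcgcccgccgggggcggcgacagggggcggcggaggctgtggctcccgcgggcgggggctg

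Bid (chr6:120891930-120916853, minus strand), whose protein links death receptors to mitochondria and whose exons overlap Bcl2l13 on the other strand, stood at 39.7, 37.0 and 37.5 CPM in controls, at 71.3, 62.3 and 65.2 CPM in mid and at 75.1 and 50.4 CPM in late liver libraries. The groups did not overlap. Bid rose by 0.78 ± 0.21 on the log2 scale in mid libraries (1.72-fold, adjusted p = 0.0281), and the late change of 0.64 ± 0.24 did not pass (adjusted p = 0.0600). Pmaip1, which encodes NOXA, the partner that marks MCL1 for loss, lay on opposite sides of the controls in the late libraries of the TG and XC series. In the TG series it stood at 42.5 CPM in the control, 6.76 CPM in mid and 13.7 CPM in late libraries. In the XC series it stood at 41.9 and 20.9 CPM in controls, 23.9 and 41.3 CPM in mid and 47.3 CPM in late libraries. Neither change passed the test (-0.94 ± 0.63 for mid and -0.43 ± 0.67 for late on the log2 scale).

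Of the effector genes, Bak1 (chr17:27019810-27029009, minus strand) rose from a low level at both time points and Bax (chr7:45461697-45466898, minus strand) rose over both time points together. Bak1 stood at 2.65, 2.24 and 2.29 CPM in controls, at 11.7, 3.66 and 6.08 CPM in mid and at 13.4 and 6.63 CPM in late liver libraries, with no overlap. Its log2 fold change was 1.80 ± 0.39 for late (3.47-fold, adjusted p = 0.0140) and 1.42 ± 0.35 for mid (2.67-fold, adjusted p = 0.0248). The late difference was 2.15 in the TG and 1.37 in the XC series. Bak1 shares exon sequence with Ggnbp1 on the other strand, and 2 transcripts annotated as nonsense-mediated decay targets (1974 and 1958 bases) held mean shares of 18.4% and 61.4% of its TPM in controls and 45.9% and 40.5% in mid and late libraries. These 2 transcripts went from means of 0.47 and 1.52 CPM in controls to 3.93 and 3.62 CPM in mid and late libraries. The 2 Bak1 transcripts annotated as coding (2387 and 902 bases) stood at 0.28 and 0.11 CPM in controls. In mid and late libraries they stood at 0.53 and 0.21 CPM, so most of the estimated rise lay outside them. The estimated count of Bak1 was as low as 35.2 in a library, the lowest of the 10 genes. In the oligo-dT library of day 0 cells Bak1 stood at 47.9 CPM without TMM scaling, against 2.31 to 2.72 CPM on that scale in low-input controls.

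Bax stood at 155, 120 and 108 CPM in controls, at 305, 161 and 154 CPM in mid and at 289 and 157 CPM in late liver libraries. Mid replicate 3 lay just below control replicate 1, so the groups overlapped at that point, while within each series all mid and late libraries lay above the controls. Bax rose by 0.61 ± 0.18 on the log2 scale over both time points (1.53-fold, adjusted p = 0.0211), and neither alone passed (adjusted p = 0.0516 for mid and 0.0695 for late). Without the series term the rise over both time points did not pass in the edgeR fit (adjusted p = 0.105). The coding transcript of 867 bases stood at 62.3, 46.4 and 42.4 CPM in controls and at 76.8 to 181 CPM in mid and late libraries. Another coding transcript, of 1100 bases, stood at 44.7 to 52.9 CPM in controls and at 37.6 to 53.7 CPM in mid and late libraries. The first separated the groups without overlap and the second did not.

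**Figure D2:**
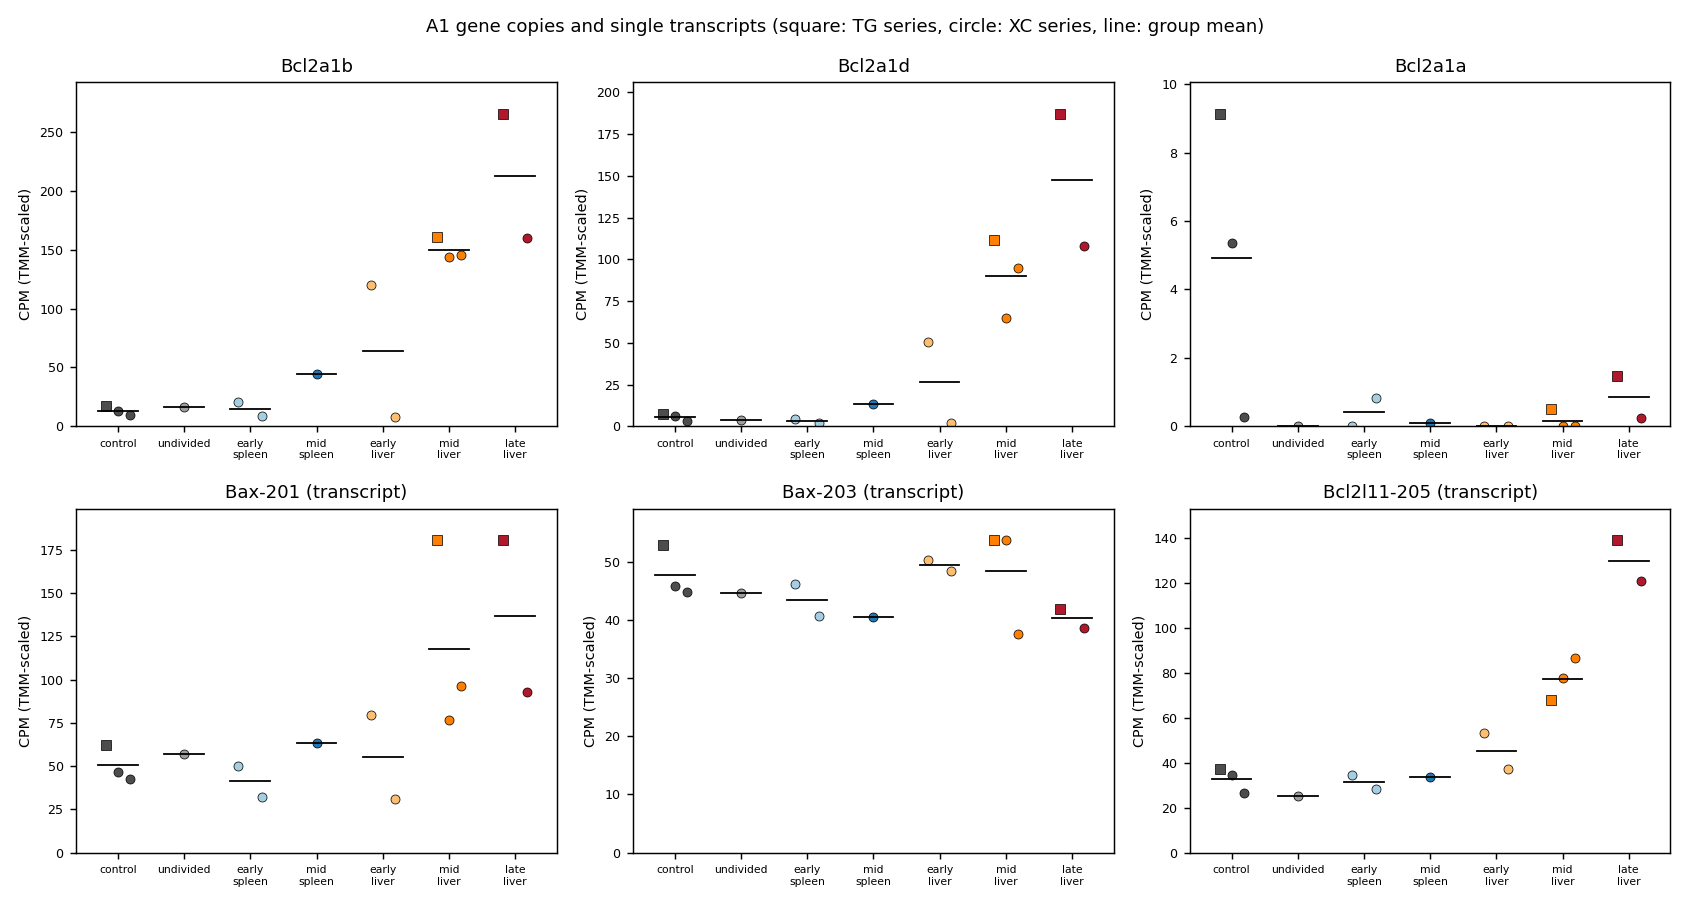
Level of the 3 A1 copies (upper row) and of single transcripts of Bax and Bcl2l11 (lower row) in each low-input library, in CPM scaled by TMM on linear axes from 0. Squares are TG series libraries, circles XC series libraries and lines group means. In mid and late liver libraries Bcl2a1b reaches 144 CPM or more and Bcl2a1d 64.6 CPM or more, Bcl2a1a stands highest in the day 0 controls, and the 1100-base Bax transcript (lower middle panel) overlaps between groups.

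Over the 5 mid and late liver libraries, 4 genes lay above all controls in CPM (Bcl2l1, Bcl2a1b, Bid and Bak1) and 1 below all controls (Mcl1). Among all 14600 genes, 19.6% lay above and 18% below in this way. In TPM, Mcl1 overlapped, at 186.8 to 510.5 in controls and 61.4 to 305 in mid and late libraries. So did Bid, at 15.1 to 20.4 and 18.5 to 28.85. On that scale Bcl2 (37.4 to 50.1 and 11.8 to 31.75) lay below all controls and Bax (146 to 150 and 184 to 248) above them. The median log2 fold change over the 10 genes was 0.62 for late and 0.70 for mid liver libraries, beside -0.03 and -0.06 over all genes tested.

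**Figure D3:**
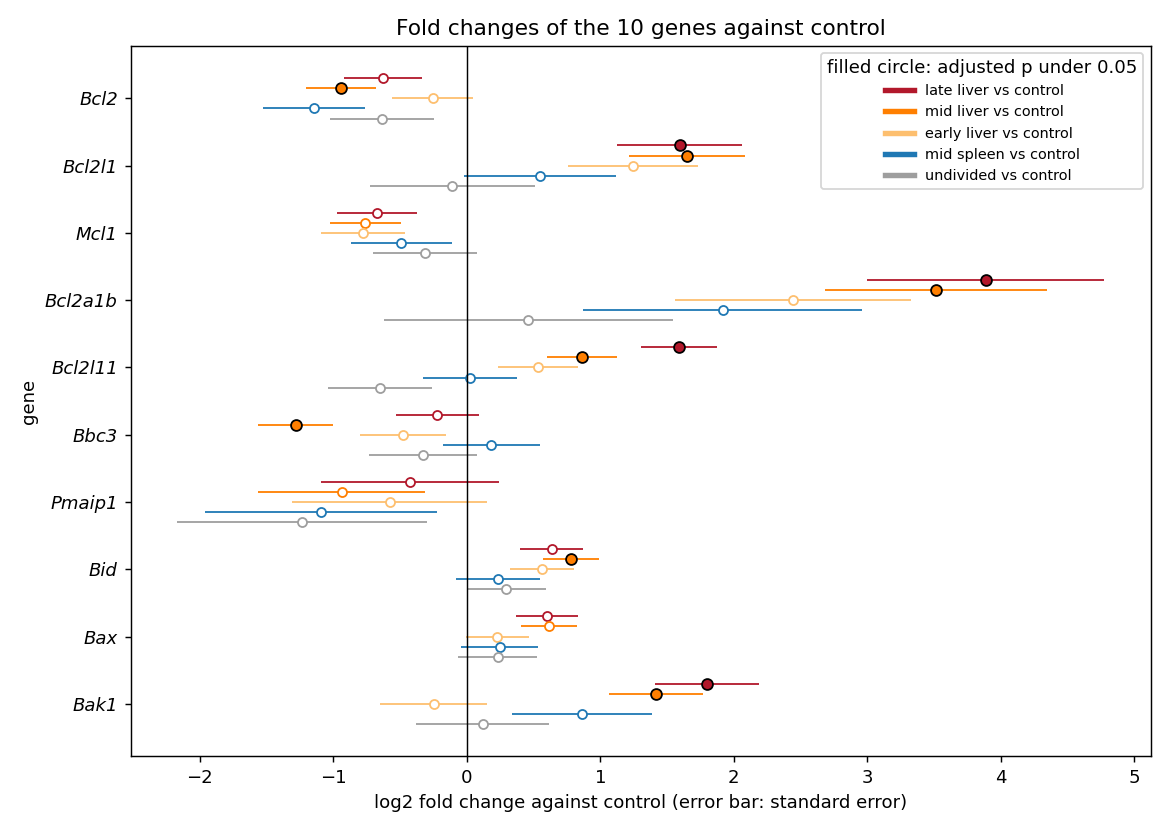
Log2 fold change of each gene against control with its standard error, from the edgeR fits, for late, mid and early liver, mid spleen and undivided libraries. Filled circles passed an adjusted p of 0.05. Bcl2a1b lies farthest to the right for the liver libraries, and none of the 10 genes was called in the early liver, mid spleen or undivided libraries.

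Summed by role, the pro-survival genes overlapped between controls and mid and late libraries, while the shares of Mcl1 and Bcl2a1b in that sum did not. Their summed level was 253, 588 and 466 TPM in controls and 226 to 531 TPM in mid and late libraries. Mcl1 made up 73.7% to 87.6% of it in controls and 27.0% to 58.0% in mid and late libraries. Bcl2a1b made up 2.64% to 7.12% in controls and 32.0% to 64.5% in mid and late libraries, and Bcl2 went from 8.04% to 16.6% down to 4.14% to 6.07%. The summed BH3-only genes stood at 53.6 to 102 TPM in controls and 38.1 to 117 TPM in mid and late libraries. The summed effector genes stood at 148 to 151 TPM in controls and 188 to 252 TPM in mid and late libraries, with no overlap, and Bax made up 98.1% or more of them in these groups.

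**Figure D4:**
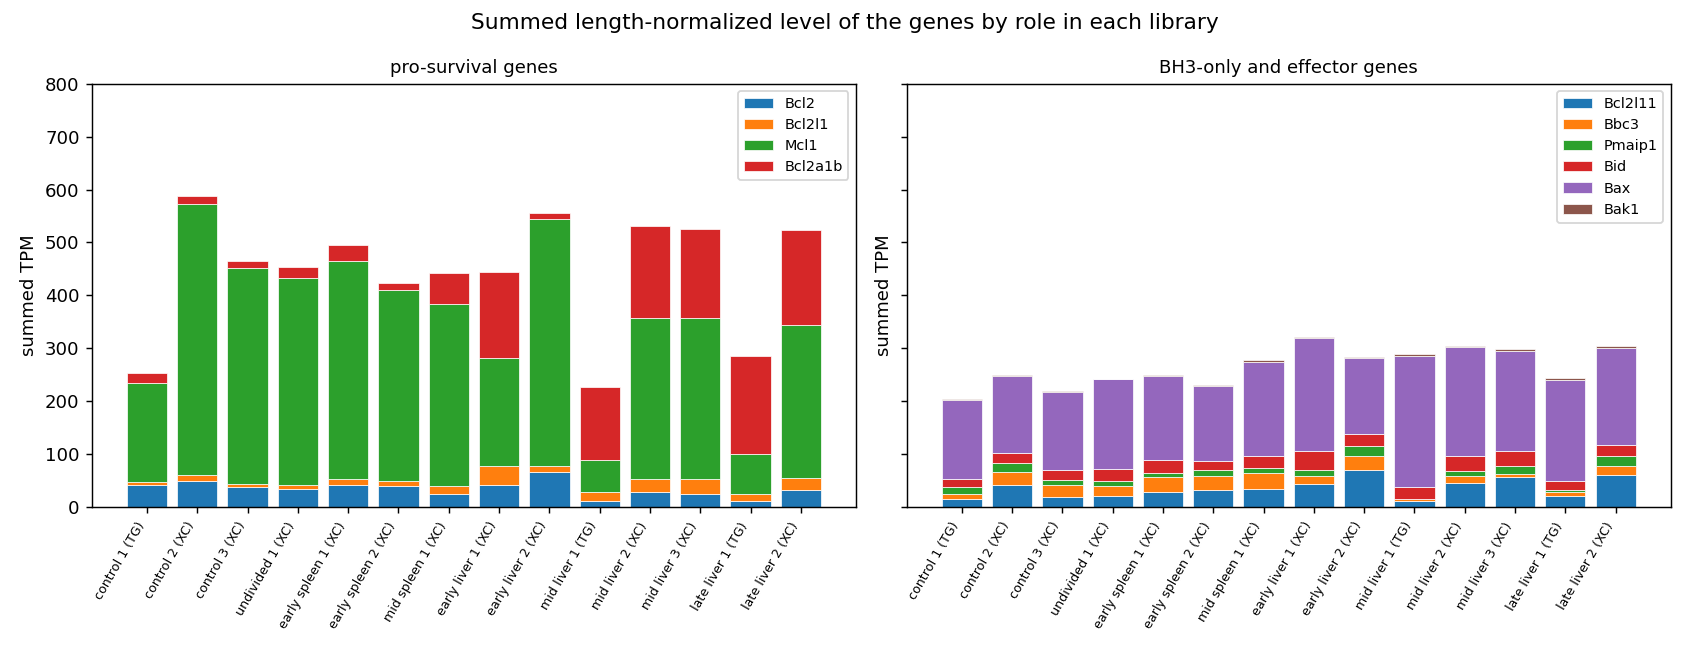
Summed TPM of the pro-survival genes (left) and of the BH3-only and effector genes (right) in each low-input library, stacked by gene from 0, with the series in brackets. The Mcl1 segment is the tallest pro-survival segment in controls, and the Bcl2a1b segment grows to 137 to 184 TPM in the mid and late liver libraries.

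The ratio of summed pro-survival to summed pro-death TPM was 1.24, 2.35 and 2.13 in controls, 0.78, 1.75 and 1.77 in mid and 1.17 and 1.72 in late liver libraries. The groups overlapped, and the TG libraries were the lowest of each group. With CPM in place of TPM the ratio was 2.62 to 3.45 in controls and 1.14 to 2.11 in mid and late libraries, and the groups did not overlap. In TPM, the mid and late libraries lay below the controls within each series (0.78 and 1.17 against 1.24 in TG, and 1.72 to 1.77 against 2.13 and 2.35 in XC). With Mcl1 left out the order turned, to 0.33, 0.31 and 0.26 in controls, 0.57, 0.75 and 0.74 in mid and 0.85 and 0.77 in late libraries. With Bcl2a1a and Bcl2a1d added, it was 1.96 ± 0.57 (SD, n = 3) in controls and 1.88 ± 0.30 (n = 2) in late libraries. By library it was then 1.32, 2.41 and 2.15 in controls, 1.09, 1.99 and 2.11 in mid and 1.67 and 2.09 in late libraries, so that the TG late library lay above the TG control, while the other mid and late libraries lay below the controls of their series.

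Single pairs differed. Bcl2 to Bcl2l11, the pair in which BCL2 holds BIM, stood at 2.69, 1.19 and 1.89 in controls, 1.14, 0.61 and 0.44 in mid and 0.54 and 0.52 in late libraries, so that all mid and late libraries lay below all controls. Bcl2l1 to Bax stood at 0.042 to 0.078 in controls and 0.063 to 0.15 in mid and late libraries and overlapped. In CPM this pair stood at 0.119 to 0.187 in controls and 0.188 to 0.393 in mid and late libraries, which did not overlap by a narrow margin. Mcl1 to Pmaip1 stood at 14.0 to 43.8 in controls and 16.1 to 36.0 in mid and late libraries and overlapped. These ratios compare RNA only and were given no test.

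**Figure D5:**
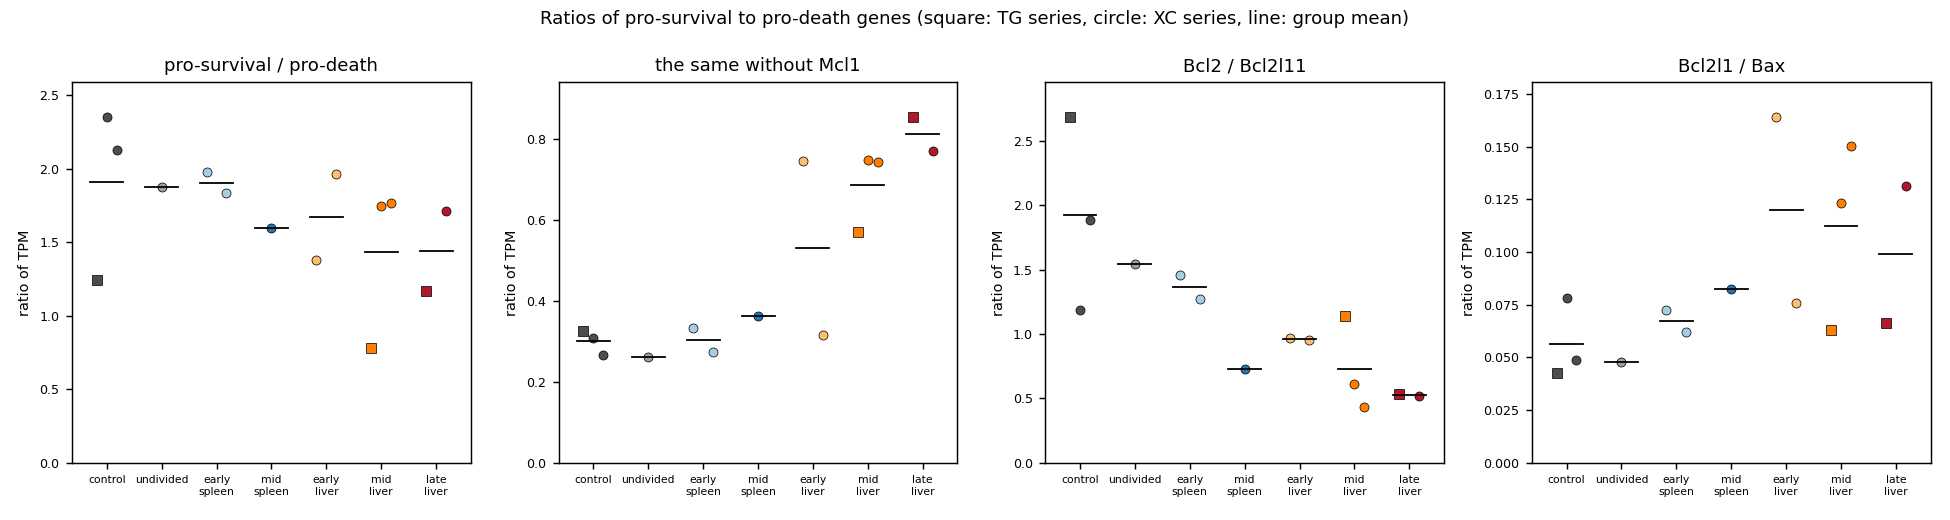
Ratio of summed pro-survival to summed pro-death TPM, the same without Mcl1, and 2 single pairs, in each low-input library on linear axes from 0. Squares are TG series libraries, circles XC series libraries and lines group means. Without Mcl1 the mid and late liver libraries lie above all controls, and for Bcl2 to Bcl2l11 they lie below.

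The early liver libraries, at day 7, stood apart from each other. Bcl2a1b was 120 CPM in replicate 1 and 7.94 CPM in replicate 2, Bcl2l1 was 66.1 and 17.9 CPM, Bid was 67.0 and 39.8 CPM and Mcl1 was 287 and 533 CPM. For these genes replicate 1 was near, among or beyond the mid libraries and replicate 2 among or next to the controls. Bcl2l11, at 104 and 98.3 CPM, lay above all controls in both, and Bak1, at 1.96 and 1.42 CPM, below all controls. No gene was called against control among the 10 or among all genes (0%). By unadjusted p under 0.05, 4 of the 10 passed (Bcl2a1b, Bcl2l1, Mcl1 and Bid), and so did 1493 of all 14600 genes. DESeq2 called 1 of the 10, and 219 genes higher and 131 lower among all genes. Without replicate 2, 4 genes were called: Bcl2a1b (3.34 on the log2 scale), Bcl2l1 (1.89) and Bid (0.88) higher and Mcl1 (-1.29) lower, with the lone library assumed to vary like the other groups. Among all 14363 genes tested in that fit, 1384 were called higher and 518 lower.

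For Bcl2a1b and Bcl2l1, spleen libraries of leukemia-bearing mice stayed nearer to the controls than the mid and late liver libraries did. At day 7, Bcl2a1b was 20.8 and 8.85 CPM, once above and once below all controls, and Bcl2l1 was 20.2 and 14.8 CPM, within their range. No gene was called (0% of 15449 genes tested), and 0 of the 10 had an unadjusted p under 0.05, beside 970 of all genes. DESeq2 called 0 of the 10, and 6 genes higher and 5 lower among all. Early liver against early spleen gave no calls by edgeR (0%), where 2 of the 10 had an unadjusted p under 0.05, beside 1391 of all 15449 genes. There DESeq2 called 0 of the 10, and 19 genes higher and 37 lower among all. In the mid spleen library Bcl2a1b was 44.1 CPM, above all controls and below all mid liver libraries, Bcl2l1 was 25.9 CPM and Bcl2 was 128 CPM, below all controls. Its Bcl2 level also lay below mid liver replicates 2 and 3 (164 and 152 CPM) and above replicate 1 (91.6 CPM). Bak1, at 3.63 CPM, lay above all controls and next to mid liver replicate 2 (3.66 CPM) in that spleen library. None of the 10 genes was called there against control or in mid liver against mid spleen, where 0.00647% of all genes were called in each. By unadjusted p under 0.05, Bcl2 passed in the first (-1.15 ± 0.38) and Bbc3 (-1.45 ± 0.35) and Bcl2l11 (0.86 ± 0.37) in the second.

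The undivided library, at day 18, held 16.2 CPM of Bcl2a1b, 16.5 CPM of Bcl2l1, 44.8 CPM of Bcl2l11, 183 CPM of Bcl2, 567 CPM of Mcl1 and 2.19 CPM of Bak1. Of these, Bcl2a1b, Bcl2l1 and Mcl1 lay within the range of controls and Bcl2l11, Bcl2 and Bak1 just under it. No gene was called against control (0%) by edgeR or DESeq2, and 0 of the 10 had an unadjusted p under 0.05. Between late and mid liver libraries edgeR called no gene either (0%). Of the 10, Bbc3 and Bcl2l11 were the 2 with an unadjusted p under 0.05, beside 780 of all 14600 genes. DESeq2 called 0 of the 10 and 23 genes higher and 11 lower among all. With 1 or 2 libraries on a side, a p that misses the threshold does not show equal levels.

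Genes around the family were described from 7 lists of 65 genes in all, beside 19.8% of all genes tested called higher and 17.7% lower in late liver libraries. Of the other BCL2 family genes, 12 of 16 were tested, and 4 rose and 0 fell in late liver libraries (median 0.68 on the log2 scale). Besides Bcl2a1d, these were Bcl2a1c, a further A1 copy (3.87 ± 1.11, from a mean of 0.12 CPM to 1.77 CPM, adjusted p = 0.0285), Bnip3, which acts in mitochondrial clearance (2.13 ± 0.33, adjusted p = 0.00888), and Bcl2l12 (0.70 ± 0.22, adjusted p = 0.0394). The list of genes that act once the outer membrane is open is given only in part. Of these, Cycs, which encodes cytochrome c (1.09 on the log2 scale), Htra2 (1.23) and Aifm1 (0.87) rose. All 3 mitochondrial porins rose: Vdac1 (1.34), Vdac3 (1.20) and Vdac2 (0.71).

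Of 5 inhibitors of apoptosis, Birc5, which encodes survivin and also serves in cell division, rose (5.22 ± 1.01, adjusted p = 0.0131) and Birc6 fell (-0.76). In the death receptor arm, 2 of 9 rose and 2 fell, near the 19.8% and 17.7% of all genes. Fasl, the ligand of FAS, rose from a mean of 1.38 CPM to 57.0 CPM (5.26 ± 1.28, adjusted p = 0.0206) and the adaptor gene Tradd rose by 0.80, while Cflar, which encodes the caspase-8 inhibitor FLIP, changed by -0.86 and Ripk1 by -0.62. None of 4 genes of MCL1 turnover was called.

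Upstream of the family, 16 of 17 genes were tested, and 3 rose and 3 fell, also near the shares among all genes. The interleukin-2 receptor genes Il2ra (6.44 ± 1.26, adjusted p = 0.0134) and Il2rb (2.04 ± 0.30, adjusted p = 0.00871) and the NF-κB gene Nfkb1 (0.90) rose. Il7r, the interleukin-7 receptor gene, fell from a mean of 377 CPM to 72.9 CPM (-2.47 ± 0.79, adjusted p = 0.0442), Foxo1 from 430 CPM to 128 CPM (-1.71 ± 0.39, adjusted p = 0.0152) and Trp53inp1 by less (-0.96). The change of Trp53, 0.54 ± 0.26, did not pass (adjusted p = 0.123).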

How the data were processed

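RNA of sorted TCRTg101 was sequenced by the authors in batches from low-input libraries, and the submitters' processing notes name kallisto, bcl2fastq and the builds mm10 and GRCm38. The authors deposited estimated counts for each transcript and TPM, a value per transcript length and library size. Annotation release and strand setting are not given in the sources used here. Estimated counts were summed per gene (GENCODE vM21, matching 98.2% of transcripts and 98.9% to 99.2% of counts) and over the runs of a library, and were rounded. The mean chi-square between runs of 1 library (11 pairs) was 1.85 to 25.0, averaged over genes, and that between libraries of 1 group (9 pairs) 47.8 to 367, so each library counted once. Totals per library are given in the report, and the number of libraries limits the precision of each test.

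Levels are CPM scaled by TMM factors (0.72 to 1.22) over 14 low-input libraries. TPM served ratios and comparisons between genes. Tests used edgeR 4.0.16 (robust quasi-likelihood, two-sided) in R 4.3.3 with group and series, on genes reaching 10 counts in 6 or more libraries, with Benjamini-Hochberg adjustment over all genes tested. Liver and undivided comparisons used 11 libraries and those with spleen 14. A group of 1 library was assumed to vary like the others. Scripts were checked on simulated data. Alternatives were DESeq2 1.42.0, another scaling, filter or library set, no series term, first runs alone, counts from TPM and the A1 copies as 1 gene. Coding sequences are the longest open reading frames. The oligo-dT library entered no fit.

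The 10 genes and the lists were chosen with earlier results of these data known. All 10 are named. The rule for each other list was the genes past an adjusted p of 0.05 in late liver against control, up to 6 by size, and some results it gave are not reported here. Within-series values are differences of mean log2(CPM + 0.5).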

Additional observations from a re-analysis of the deposited data

Results flagged for a closer look

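In the 5 mid and late liver libraries, Bcl2a1b was highest in late replicate 1 at 265.7 CPM, with a gap to the next library that was 0.859 of the whole range, above the limit of 0.71 for 5 libraries. Chance marks about 1 in 20 groups of this kind, and each of the 10 genes was looked at. These levels were scaled by TMM, and the factor of late replicate 1 was the lowest, at 0.72. In CPM without that scaling, late replicates 1 and 2 were highest at 192 and 152 CPM. In TPM they stood at 184 and 179 TPM. The limit was not applied on those scales.

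Pmaip1 lay on opposite sides of the controls in the series, in every late library. The late library lay below the control in the TG series (-1.60 on the log2 scale, 1 library on each side) and above both controls in the XC series (0.67). The difference between the series was not tested.

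The oligo-dT library of day 0 control cells, which entered no comparison, held 47.9 CPM of Bak1 (unscaled CPM), above the highest low-input library of any group (9.73 CPM) and 17.6 times the TG control. It held 72.2 CPM of Pmaip1, above the highest low-input library (45.0 CPM). Of the 10 genes, 2 lay above every low-input control in this library, 3 below (Bcl2a1b, Bid and Bax) and 5 within their range. The oligo-dT protocol covered 1 library, so these are values with no test.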

How the results depend on the processing

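The counts of called members depended on single libraries. For late libraries (4 of 10 called), 7 calls were made in a fit of control and late libraries only, and leaving out a library gave 0 to 4. For mid libraries (7 called), 3 calls were made without the series term, and leaving out a library gave 0 to 3. For the joint mid and late group (8 called), 5 calls were made without the series term, and leaving out a library gave 0 to 9, with 0 reached only without control replicate 1. The fit of XC libraries alone, chosen after seeing the data, gave 0 calls for mid and 0 for the joint group. It called 0 of all 13295 genes for mid and for the joint group. For late libraries this fit had 1 late library, and the late calls did not hold. Among all genes, the fit of control and late libraries only called 2815 higher and 2839 lower of 12577. Without the series term, 903 higher and 482 lower of 14600 were called for mid and 2241 and 2088 for the joint group. For early liver (0 calls), DESeq2 gave 1, a filter of at least 1 count in 1 library gave 2, and leaving out a library gave 0 to 4. That filter gave 1 call in early spleen and 2 each in early liver against early spleen, mid spleen against control and mid liver against mid spleen. Among all genes it called 953 higher and 527 lower of 29482 in early liver and, of 32768, 480 and 162 in early spleen, 516 and 468 in early liver against early spleen, 493 and 138 in mid spleen and 395 and 363 in mid liver against mid spleen. Leaving out a library gave 0 to 2 calls in early liver against early spleen. With counts scaled from TPM, 3 of the 10 genes rose and 0 fell in late, 4 and 2 in mid and 5 and 2 in the joint group. Among all 14030 genes, 2210 rose and 2098 fell in late, 1925 and 1531 in mid and 2949 and 2936 in the joint group. The cause of these shifts was not tested. In the late, mid and joint comparisons, of the 10 genes only Pmaip1, which was not called, changed sign. Leaving out a library gave -0.96 to 0.71 for late and -1.21 to 0.23 for the joint group, with values above 0 without control replicate 1 (0.71 and 0.23) and, for late, without late liver replicate 1 (0.10). In XC libraries alone it was 0.58 for late, 0.0205 for mid and 0.23 for the joint group. The control sets of day 0 alone and of the XC series alone are the fits without control replicate 3 and without control replicate 1.

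The log2 ratio of pro-survival to pro-death TPM over control was -0.40 for late and -0.41 for mid libraries. These values compare group means with no series term, and the groups held TG libraries in unlike shares. Within TG the ratio was 1.24 in the control, 0.78 in mid and 1.17 in late libraries. Within XC it was 2.35 and 2.13 in controls, 1.75 and 1.77 in mid and 1.72 in late libraries. Without Mcl1 it reversed to 1.44 for late and 1.19 for mid libraries, and with CPM in place of TPM the late value was -1.01. No paired analysis was possible because the labels give no replicate numbers that groups share.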
